A study of Mus musculus with 15 samples.

Results

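The RNA levels of 10 genes that join broken DNA ends were measured in mouse bone marrow, out of 45706 genes listed in the count table. The genes were listed by their known function, not by their measured values, although earlier results of these data were known at that time. Their symbols were matched to Ensembl identifiers through GENCODE vM21. Lineage marker-negative (Lin-) marrow cells, the immature fraction left when mature blood cells are depleted, came from secondary recipients, that is, from irradiated CD45.1+ mice that had received stem and progenitor (LSK) cells which had already passed through a first recipient. The transplanted cells were WT (3 libraries), Puma-/- (4 libraries), G3 mTerc-/-Puma+/+ (4 libraries) or were labelled G3 mTerc-/-Puma-/- (4 libraries), where G3 is the third generation bred without the telomerase RNA gene mTerc and Puma is an apoptosis gene listed as Bbc3. Deficiency is germline and holds for all cells of the donors, the recipients are not described as deficient, and the sources used here do not say that remaining recipient cells were removed from the Lin- fraction.

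The library totals ran from 102790519 to 158367059 counts, with a median of 112046464. Bbc3 was at 5.04 to 6.83 normalized CPM (counts scaled to a common library total, with correction for library composition) in Puma-/-, but at 13.5 to 17.1 in the libraries labelled G3 mTerc-/-Puma-/-, beside 9.71 to 23.6 in WT, so that Bbc3 goes against this label. Terc, whose RNA is poorly captured by poly(A) selection, reached at most 0.00984 normalized CPM in the 8 libraries of both G3 mTerc-/- groups and 0.0356 to 0.158 in the others. Replicate 2 labelled G3 mTerc-/-Puma-/- stood apart. The 6 erythroid markers summed to 971 normalized CPM there and to 18.2 to 149 in the other 14 libraries, and the 7 markers of progenitors (Kit, Cd34, Flt3, Gata2, Meis1, Mecom and Hlf) to 353 there and to 447 to 830 elsewhere, although only Flt3 and Cd34 of these 7 were at their lowest there. The comparisons below therefore use the other 14 libraries, which are those the study drew in its heatmaps. For Xrcc5 and Dntt, values with all 15 libraries are given beside them or in the last section. In bulk RNA, fewer cells of a type and less RNA per cell cannot be told apart.

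When telomeres become too short to be protected, their ends can be treated as DNA breaks and fused. In classical end joining, the Ku ring of Xrcc5 (Ku80) and Xrcc6 (Ku70) binds the end and recruits the kinase DNA-PKcs (Prkdc), the nuclease Artemis (Dclre1c) trims ends that cannot be joined directly, and ligase IV (Lig4) seals them with its partners Xrcc4 and XLF (Nhej1). In alternative end joining, Parp1 detects the break, DNA polymerase theta (Polq) pairs short stretches of matching bases, and ligase III (Lig3) can seal the ends, while developing lymphocytes need the classical route to complete V(D)J recombination.

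The promoters of the Ku genes and of Lig4 and Xrcc4 are shown because the levels of these partner genes parted in some of the libraries below. The Ku genes did so only in replicate 2 labelled G3 mTerc-/-Puma-/-, which the comparisons left out. Lig4 and Xrcc4 did so in a relation that lost the adjusted threshold in smaller sets of libraries. RefSeq's table for GRCm38.p6 gave 300 bases (250 before the start site and 50 from it) for 9 of the 10 genes, with a second start for Lig4. Each line reads 5′ to 3′ on the strand of the gene, and capitals mark a match, on either strand, to an E2F word (TTTCCCGC, TTTCGCGC, TTTGCCGC or TTTGGCGC) or to the ETS word CCGGAAGT. Xrcc5 lies on the + strand at chr1:72307171-72307470, Xrcc6 on the + strand at chr15:82016119-82016418, Lig4 on the - strand at chr8:9977631-9977930 and Xrcc4 on the - strand at chr13:90089559-90089858.
Xrcc5: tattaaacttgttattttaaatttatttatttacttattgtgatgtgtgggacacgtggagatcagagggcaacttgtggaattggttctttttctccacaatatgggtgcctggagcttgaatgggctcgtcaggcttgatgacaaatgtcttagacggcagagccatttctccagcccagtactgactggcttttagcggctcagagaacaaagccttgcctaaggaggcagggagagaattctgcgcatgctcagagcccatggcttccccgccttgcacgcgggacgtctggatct
Xrcc6: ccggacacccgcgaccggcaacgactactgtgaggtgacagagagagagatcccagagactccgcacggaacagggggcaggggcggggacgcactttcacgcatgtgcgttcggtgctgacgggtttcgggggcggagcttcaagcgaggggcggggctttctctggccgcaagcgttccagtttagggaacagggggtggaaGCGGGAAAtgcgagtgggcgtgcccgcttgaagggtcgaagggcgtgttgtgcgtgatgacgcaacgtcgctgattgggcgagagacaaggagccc
Lig4: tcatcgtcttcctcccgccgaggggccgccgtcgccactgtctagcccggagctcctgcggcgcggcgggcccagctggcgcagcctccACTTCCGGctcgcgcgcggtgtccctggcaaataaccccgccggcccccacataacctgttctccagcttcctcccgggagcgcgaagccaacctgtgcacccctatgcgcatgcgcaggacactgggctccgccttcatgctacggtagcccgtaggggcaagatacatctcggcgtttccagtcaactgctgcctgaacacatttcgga
Xrcc4: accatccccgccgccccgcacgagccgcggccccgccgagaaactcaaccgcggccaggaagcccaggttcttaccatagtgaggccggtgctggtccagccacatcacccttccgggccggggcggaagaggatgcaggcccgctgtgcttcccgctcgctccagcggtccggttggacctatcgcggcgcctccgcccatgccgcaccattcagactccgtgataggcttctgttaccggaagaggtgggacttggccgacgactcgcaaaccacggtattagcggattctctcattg
An E2F word was found in 1 of the 9 genes, Xrcc6, 46 bases before its start site, and in 2.26% of all 32851 promoters of the same length (3.57% of the 15574 that belong to tested genes). The ETS word was found at this Lig4 start, 161 bases before it, and in Dclre1c, and in 3.89% of all promoters (6.95% of those of tested genes). A match is a description of letters and not evidence that a factor binds there.

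All 10 genes passed the filter on low counts and were detected in every library, from 325 to 626 counts for Lig4 up to 20549 to 44804 counts for Parp1. Because longer transcripts give more reads, levels of different genes were compared as normalized CPM per kilobase of annotated exon. On this per-length scale Parp1 was highest, with a median of 50.1 over the 15 libraries (33.4 to 53.4). Xrcc6 followed at 16.5 (15.4 to 19.8), Nhej1 at 6.87 (5.16 to 8.41) and Lig3 at 4.73 (3.91 to 5.78). Polq had a median of 3.78 (3.01 to 4.52), Xrcc5 of 3.44 (2.90 to 8.92) and Prkdc of 3.24 (2.77 to 3.69). Dclre1c was at 1.79 (1.37 to 2.16), Xrcc4 at 1.64 (1.26 to 2.12) and Lig4 was lowest at 0.834 (0.593 to 0.955). Parp1, Xrcc6 and Nhej1 each exceeded the next gene of this order in 15 of 15 libraries, and Lig3 exceeded Polq in 14. The places of Polq and Xrcc5 (Polq higher in 9 of 15 libraries), of Dclre1c and Xrcc4 (Dclre1c higher in 8 of 15), and of Xrcc5 and Prkdc (Xrcc5 higher in 12 of 15), did not separate beyond the spread between libraries. The order was the same in all 10 places when the longest transcript was used as the length.

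**Figure D1:**
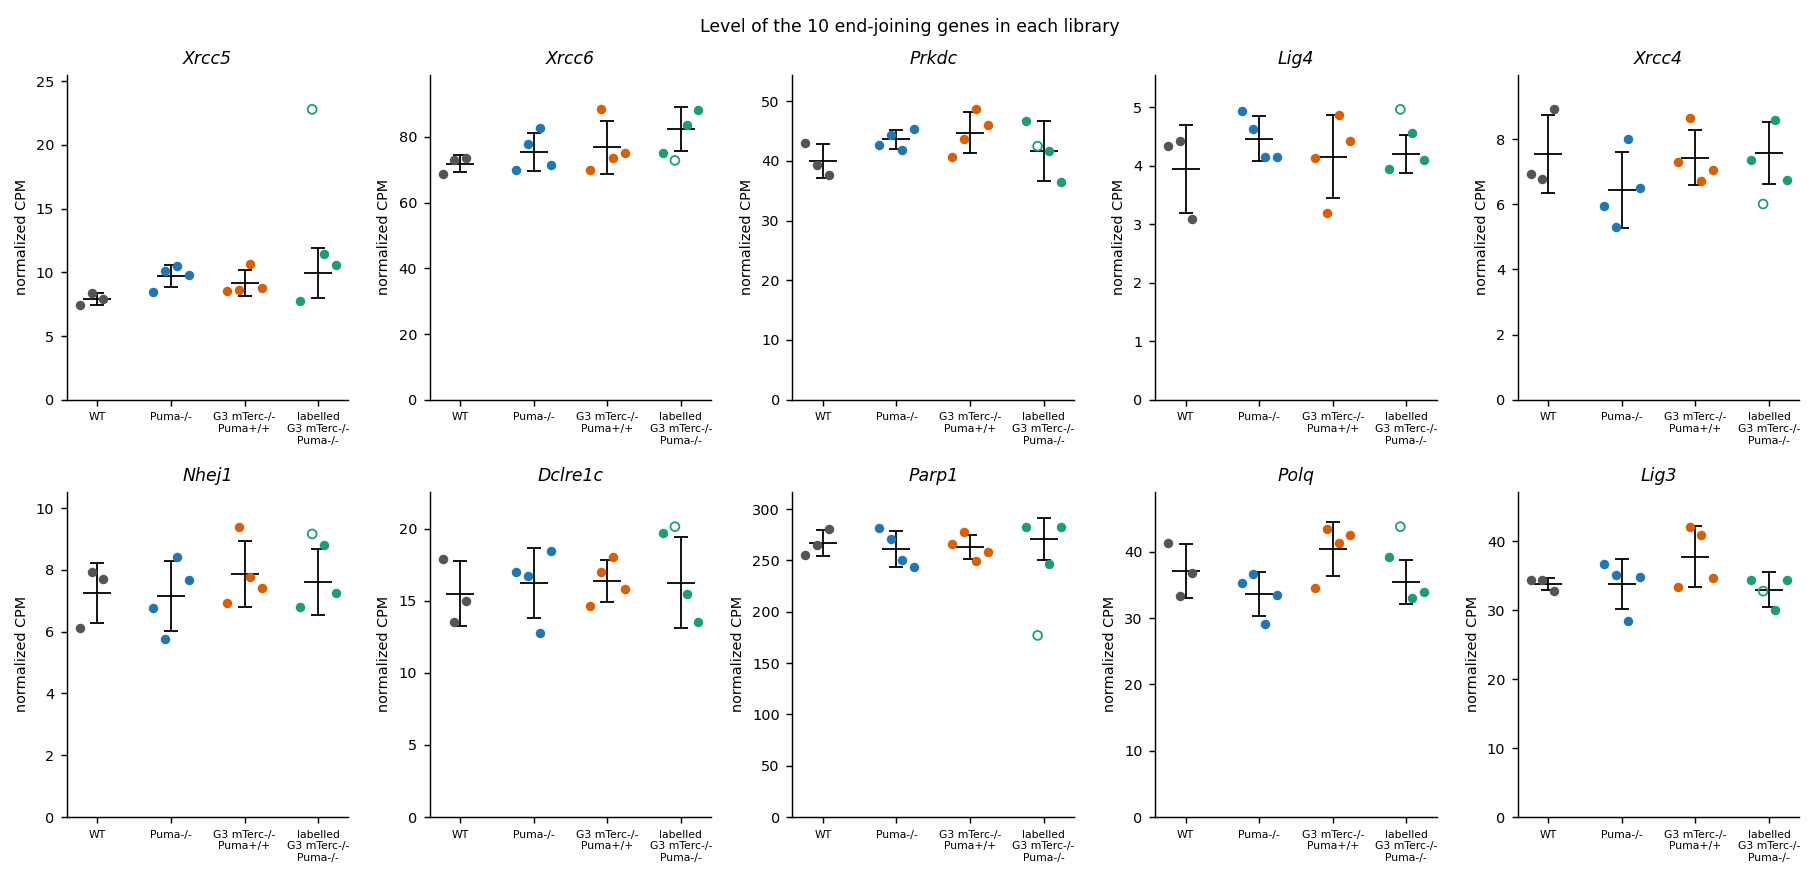
Normalized CPM (y axis, from 0) of each of the 10 genes in each library of the 4 genotypes (x axis). Points are libraries, bars are mean ± SD, and the open circle is replicate 2 labelled G3 mTerc-/-Puma-/-, which is left out of the mean. The 4 genotypes overlap in nearly every panel, and the open circle lies far above the other libraries for Xrcc5 (22.8) and far below them for Parp1 (177).

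No difference between genotypes passed the test for any of the 10 genes. Genotypes and the interaction of mTerc and Puma are named here by the labels, and Bbc3 goes against the label G3 mTerc-/-Puma-/-. Across the 6 pairwise comparisons, the interaction of mTerc and Puma and the test over all 4 genotypes, 0 of the 80 tests passed an adjusted p of 0.05 (quasi-likelihood test of edgeR, adjusted by Benjamini and Hochberg over 18983 genes). At an unadjusted p under 0.05 there was 1, Polq in G3 mTerc-/-Puma+/+ against Puma-/-. None passed under any of 24 other settings either, DESeq2 and limma-voom included. Few genes passed in these comparisons at all. The share of all tested genes that passed was 0.079% for Puma-/- against WT, 0.0369% for G3 mTerc-/-Puma+/+ against WT and 0.801% for G3 mTerc-/-Puma+/+ against Puma-/-. For the libraries labelled G3 mTerc-/-Puma-/- it was 0.306% against Puma-/-, 0.0738% against G3 mTerc-/-Puma+/+ and 0.0632% against WT. It was 0.0527% for the interaction and 0.448% over the 4 genotypes. At an unadjusted p under 0.05 the same shares were, in that order, 10.1%, 3.86%, 17.1%, 8.42%, 6.22%, 5.45%, 4.93% and 11.4%.

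The intervals show how large a change could have been missed. Of the 60 pairwise differences, all 60 had a 95% interval within 2-fold in either direction, and 58 had it within 1.5-fold. The exceptions were Xrcc5 in Puma-/- and Xrcc5 in the libraries labelled G3 mTerc-/-Puma-/-, each against WT. The largest fitted difference was 1.26-fold. These limits hold for the 14 libraries, and with replicate 2 included the largest was 1.66-fold, for Xrcc5 in the labelled libraries against WT. The median difference of the 10 genes lay between 0.00 and 0.11 on the log2 scale in the 6 pairwise comparisons, beside -0.01 to 0.02 over all genes tested. Parp1 was the most tightly bounded, with its outermost bounds at 0.875-fold and 1.16-fold over the 6 pairwise comparisons.

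**Figure D2:**
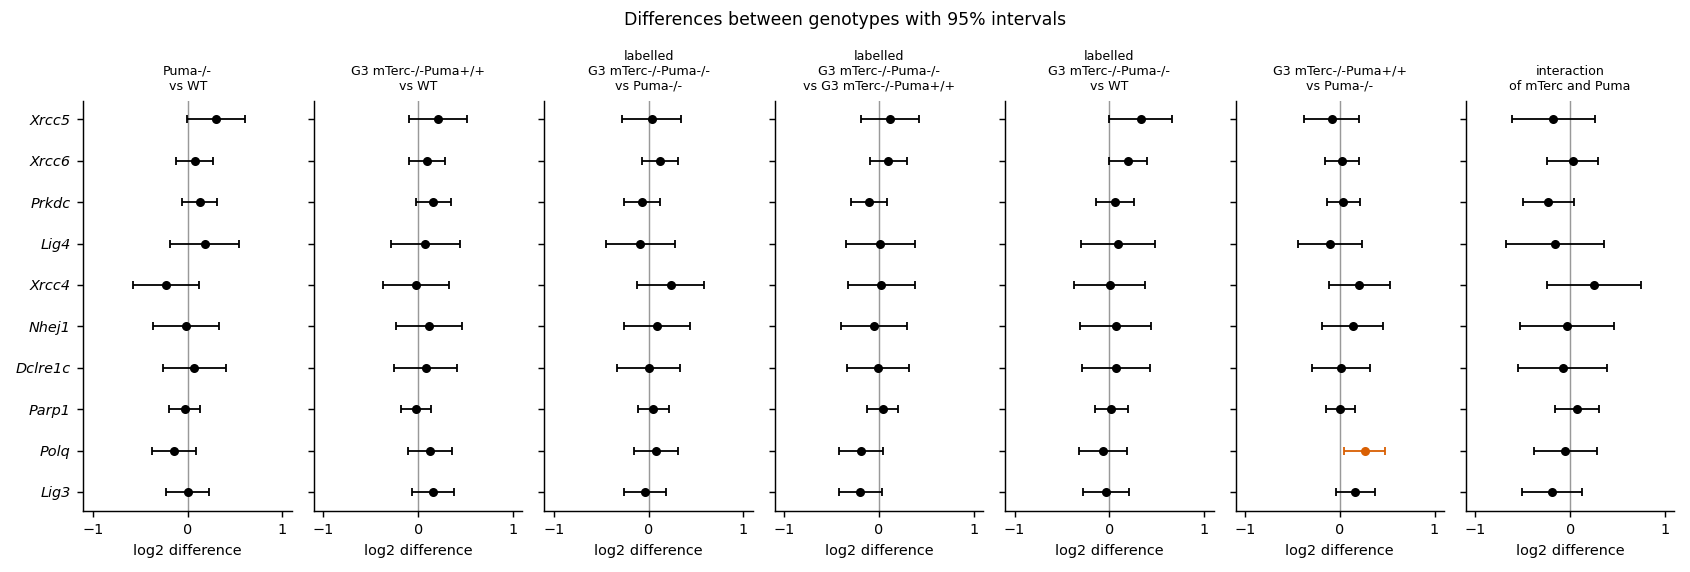
Log2 difference between genotypes as labelled (x axis) of each gene (y axis) in 6 pairwise comparisons and in the interaction of mTerc and Puma, with 95% intervals as bars, from 14 libraries. Bbc3 goes against the label G3 mTerc-/-Puma-/-. The interval of Polq in G3 mTerc-/-Puma+/+ against Puma-/-, in orange, lies above 0, and every other interval reaches 0.

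The Ku genes had their lowest group means in WT, as did Prkdc, Lig4 and Dclre1c in the 14 libraries compared, and none of these differences passed. Xrcc5 (ENSMUSG00000026187, chromosome 1 of GRCm38 from 72307421 to 72394952) was at 7.42, 8.37 and 7.93 normalized CPM in WT and at 8.44, 10.1, 10.5 and 9.81 in Puma-/-. It was at 8.52, 8.63, 10.7 and 8.78 in G3 mTerc-/-Puma+/+, and at 7.76, 11.5 and 10.6 in replicates 1, 3 and 4 labelled G3 mTerc-/-Puma-/-. The lowest Puma-/- library (8.44) and the lowest G3 mTerc-/-Puma+/+ library (8.52) were narrowly above the highest WT library (8.37). By contrast, replicate 1 labelled G3 mTerc-/-Puma-/- fell within the WT range. The share of all tested genes whose groups separate in this way was not counted, here or for the genes below. The log2 difference from WT was 0.30 in Puma-/- (SE 0.144, 95% interval -0.01 to 0.61, adjusted p = 0.510 from edgeR's test) and 0.21 in G3 mTerc-/-Puma+/+ (SE 0.144, adjusted p = 0.998 from edgeR's test). In the libraries labelled G3 mTerc-/-Puma-/- it was 0.33 (SE 0.153, adjusted p = 0.916 from edgeR's test), and an exact two-sided permutation test of 3 against 3 libraries gave p = 0.3, where the smallest possible is 0.1. With replicate 2 included, this difference was 0.73 (adjusted p = 0.432 from edgeR's test), and that of the labelled libraries was 0.44 from Puma-/- and 0.52 from G3 mTerc-/-Puma+/+, beside 0.03 and 0.12 without it.

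Xrcc6 (ENSMUSG00000022471, chromosome 15 from 81987835 to 82040085) varied less. Replicates 1, 3 and 4 labelled G3 mTerc-/-Puma-/- were at 75.1, 83.6 and 88.3 normalized CPM, G3 mTerc-/-Puma+/+ at 70.1, 88.4, 73.7 and 75.1, Puma-/- at 70.1, 77.7, 82.7 and 71.4, and WT at 68.8, 73.1 and 73.5. The 3 labelled libraries lay above all WT libraries (75.1 or more against 73.5 or less), while the other genotypes overlapped with WT. The share of all genes separated in this way was not counted. The log2 difference of the labelled libraries from WT was 0.20 (SE 0.0949, 95% interval -0.01 to 0.40, adjusted p = 0.931 from edgeR's test, and p = 0.1, the smallest possible, by exact permutation), and 0.16 with replicate 2 included, whose 72.9 lay within the WT range. Of its exonic bases, 7.69% are shared with Desi1 on the opposite strand, and the counts appear to have been made without regard to strand. Per length, Xrcc6 exceeded its partner Xrcc5 by 3.95 to 5.84 times in the 14 libraries.

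Prkdc (ENSMUSG00000022672, chromosome 16 from 15637866 to 15842235), the kinase that Ku recruits, was at 43.0, 39.4 and 37.5 normalized CPM in WT and at 40.6, 43.7, 48.6 and 46.0 in G3 mTerc-/-Puma+/+. The latter were higher by 0.16 on the log2 scale (SE 0.0876, adjusted p = 0.998 from edgeR's test) and the groups overlapped. It was at 42.7, 44.3, 41.9 and 45.4 in Puma-/- and at 46.6, 41.7 and 36.5 in the labelled libraries used. The interaction, that is, the difference of the libraries labelled G3 mTerc-/-Puma-/- from Puma-/- minus that of G3 mTerc-/-Puma+/+ from WT, was -0.23 for Prkdc (SE 0.124, adjusted p = 0.999 from edgeR's test), which had the smallest p of the interaction among the 10 genes.

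No gene of the ligase IV complex differed between genotypes near the threshold. Lig4 (ENSMUSG00000049717, chromosome 8 from 9969049 to 9977686) had means ± SD of 4.47 ± 0.386 normalized CPM for Puma-/-, 4.20 ± 0.324 for the labelled libraries, 4.16 ± 0.710 for G3 mTerc-/-Puma+/+ and 3.95 ± 0.752 for WT (n = 4, 3, 4 and 3). Its smallest p was in Puma-/- against WT, with a log2 difference of 0.18 (SE 0.170, adjusted p = 0.744 from edgeR's test). Xrcc4 (ENSMUSG00000021615, chromosome 13 from 89774027 to 90089608) was lowest for Puma-/- at 6.43 ± 1.16, beside 7.43 ± 0.842 for G3 mTerc-/-Puma+/+, 7.53 ± 1.20 for WT and 7.56 ± 0.948 for the labelled libraries. The labelled libraries differed from Puma-/- by 0.23 on the log2 scale (SE 0.163, adjusted p = 0.761 from edgeR's test). Nhej1 (ENSMUSG00000026162, chromosome 1 from 74967139 to 75125200) averaged between 7.16 ± 1.15 in Puma-/- and 7.88 ± 1.07 in G3 mTerc-/-Puma+/+, a log2 difference of 0.14 (SE 0.150, adjusted p = 0.681 from edgeR's test). The nuclease gene Dclre1c (ENSMUSG00000026648, chromosome 2 from 3424131 to 3464130) ran from 12.7 to 20.1 normalized CPM over the 15 libraries with group means of 15.5 to 16.4 in the 14 libraries compared, and its smallest pairwise p was 0.610.

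Among the alternative end-joining genes, Polq came closest to a change. Polq (ENSMUSG00000034206, chromosome 16 from 37011786 to 37095417) was at 35.3, 36.6, 29.1 and 33.5 normalized CPM in Puma-/- and at 34.5, 43.4, 41.3 and 42.5 in G3 mTerc-/-Puma+/+. Of the latter libraries, 3 of 4 lay above all Puma-/- libraries and replicate 1 lay within their range. WT, at 41.2, 33.3 and 36.8, overlapped with both groups, and the labelled libraries used were at 39.3, 33.1 and 34.0. G3 mTerc-/-Puma+/+ was higher than Puma-/- by 0.27 on the log2 scale (SE 0.100, 95% interval 0.05 to 0.48, unadjusted p = 0.0195, adjusted p = 0.204 from edgeR's test), and the exact two-sided permutation test gave p = 0.0857, where 0.0286 is the smallest possible. In this comparison 17.1% of all genes had an unadjusted p under 0.05, against 1 of these 10 genes. The unadjusted p rose above 0.05 without G3 mTerc-/-Puma+/+ replicate 4 and without Puma-/- replicate 3, where the differences were 0.24 and 0.20, and with library size alone (0.22).

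Markers of dividing cells, of several blood lineages and of sex moved with this comparison of Polq. All 10 S phase markers were above 0, with a median of 0.16 on the log2 scale, and none passed the adjusted threshold. All 10 mitosis markers were above 0, with a median of 0.23, and 2 rose. The summed mitosis level was 2356 to 2441 normalized CPM in Puma-/- and 2602 to 2896 in G3 mTerc-/-Puma+/+. The largest shift of the cell type lists was in the megakaryocyte markers (Pf4, Itga2b, Gp9 and Ppbp), of which 4 of 4 were below 0, with a median of -1.30, and 2 fell. Their sum was 314 to 521 normalized CPM in Puma-/- and 151 to 215 in G3 mTerc-/-Puma+/+. The 10 B lymphoid markers were all below 0, with a median of -0.67, 2 of them fell, and their sum was 73.6 to 86.3 in Puma-/- and 42.0 to 55.1 in G3 mTerc-/-Puma+/+. All 4 macrophage markers (median -0.75) and all 7 progenitor markers (median -0.46) were below 0 and none passed, and their sums overlapped between the groups. All 6 erythroid markers were above 0 (median 0.16), and none passed. Xist was at 466 to 868 normalized CPM in Puma-/- and at 0.177 to 89.0 in G3 mTerc-/-Puma+/+, and it did not pass. The Y-linked genes Ddx3y, Eif2s3y, Kdm5d and Uty rose, as did Bbc3. With Xist as a covariate the Polq difference was 0.29 (adjusted p = 0.448 from edgeR's test). The part of the marked cells and of sex in the Polq difference was not tested.

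The genes whose log2 levels followed Polq most closely over the 15 libraries, among 10432 genes compared, were Ccp110 with a Pearson r of 0.945, Rps6kb1 with 0.907, Mphosph9 with 0.892, Zfp800 with 0.885 and Prkaa1 with 0.882. Ccp110 and Mphosph9 encode centriole proteins, Rps6kb1 the ribosomal S6 kinase and Prkaa1 a catalytic subunit of AMP-activated kinase. After the genotype means were removed, r was 0.925 for Ccp110 and 0.953 for Mphosph9. The points share their libraries, and the values are a description.

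Lig3 (ENSMUSG00000020697, chromosome 11 from 82781108 to 82804274), which also seals single-strand breaks and mitochondrial DNA, was at 33.4, 42.1, 40.9 and 34.7 normalized CPM in G3 mTerc-/-Puma+/+ and at 34.4, 30.1 and 34.4 in the labelled libraries used. The log2 difference of the labelled libraries was -0.20 (SE 0.104, adjusted p = 0.836 from edgeR's test), and the groups overlapped. Of its exonic bases, 25.1% are shared with Rffl on the opposite strand. If the counts were made without regard to strand, as they appear to have been, reads of these genes cannot be fully told apart. Parp1 (ENSMUSG00000026496, chromosome 1 from 180568924 to 180601254), the break sensor, varied least of the 10 genes in the 14 libraries (residual SD 0.0868 on the log2 scale), but over all 15 its SD of 0.168 exceeded that of Prkdc (0.113), Xrcc6 (0.119) and Lig3 (0.142). Its means ± SD were 271 ± 20.7 normalized CPM for the labelled libraries used, 267 ± 12.6 for WT, 263 ± 11.8 for G3 mTerc-/-Puma+/+ and 261 ± 17.6 for Puma-/- (n = 3, 3, 4 and 4). Its smallest pairwise p was 0.526.

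The genes that assist or steer end joining were examined as 3 lists. None of the 21 measured genes passed the adjusted threshold of edgeR's test in any of the 8 tests. Among 7 accessory genes of the classical route, Dntt, the terminal transferase that adds bases to V(D)J junctions, had the largest differences. It was at 19.0, 46.4 and 26.0 normalized CPM in WT and at 52.5, 84.7, 53.4 and 57.2 in Puma-/-. It was at 30.4, 10.9, 35.0 and 48.6 in G3 mTerc-/-Puma+/+ and between 99.4 and 148 in the 3 labelled libraries used. These 3 libraries lay above all others, and the share of all genes separated in this way was not counted. Their log2 difference was 1.91 from G3 mTerc-/-Puma+/+ (SE 0.396, adjusted p = 0.111 from edgeR's test) and 1.94 from WT (SE 0.436, adjusted p = 0.276 from edgeR's test). B lymphoid markers moved with Dntt, with 10 of 10 above 0 in the labelled libraries against G3 mTerc-/-Puma+/+, a median of 2.17 and 3 that rose, and their summed level was 77.4 to 151 against 42.0 to 55.1 normalized CPM. In the same comparison 6 of 6 erythroid markers (median 1.15) and 4 of 4 macrophage markers (median 0.98) were above 0, and 4 of 4 megakaryocyte markers (median -0.46) and 10 of 10 mitosis markers (median -0.11) were below 0, with none that passed. The Y-linked genes Eif2s3y and Kdm5d fell, with means of 5.84 and 3.63 normalized CPM in the labelled libraries against 49.4 and 27.8. Against WT, 9 of 10 B lymphoid (median 1.43), 6 of 6 erythroid (median 1.06) and 6 of 7 neutrophil markers (median 0.98) were above 0 in the labelled libraries used. All 4 macrophage (median 0.83) and all 5 T and NK cell markers (median 0.59) were above 0 there too. All 4 megakaryocyte (median -0.79) and all 10 mitosis markers (median -0.12) were below 0 there, and none of these passed. Of the 6 tested genes among Bbc3, Terc, Xist and the Y-linked genes, 2 fell. The part of these cells and of sex in the Dntt level was not tested. Replicate 2 labelled G3 mTerc-/-Puma-/- had 0.327 normalized CPM of Dntt, and with it included these differences were 1.49 (adjusted p = 0.620) and 1.53 (adjusted p = 0.677, both from edgeR's test), and 0.010 and -0.033 with limma-voom. DESeq2 on the 14 libraries gave adjusted p of 0.00190 and 0.00717.

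Tdp2, which removes trapped topoisomerase II from DNA ends, was at 30.7, 30.2, 39.1 and 34.6 normalized CPM in Puma-/- and at 38.8, 44.6, 44.0 and 46.4 in G3 mTerc-/-Puma+/+, and the groups overlapped by 1 library. The log2 difference was 0.37 (SE 0.0894, adjusted p = 0.0690 from edgeR's test, and 0.00764 from DESeq2). In the same comparison Dntt had the largest difference of the 3 lists, -0.99 (SE 0.369, adjusted p = 0.200 from edgeR's test). The groups did not overlap, and the share of all genes so separated was not counted. Rbbp8 (CtIP), which starts the resection that alternative joining needs, had a log2 difference of 0.25 (adjusted p = 0.142), Mre11a, a nuclease of the resection complex, of 0.12 (adjusted p = 0.240) and the polymerase Polm of -0.30 (adjusted p = 0.275, all from edgeR's test). At an unadjusted p under 0.05, 1 of 7 classical accessory genes was higher and 2 were lower. Of 8 alternative accessory genes, 2 were higher at that p. The share of all tested genes at that p was 17.1%. Against WT, Puma-/- differed at an unadjusted p under 0.05 in Dntt (1.02), Tdp2 (-0.28) and Rbbp8 (-0.26), with adjusted p of 0.403 or more from edgeR's test. Of all tested genes, 10.1% had such an unadjusted p in that comparison. In that comparison 4 of 4 megakaryocyte markers were above 0 (median 1.02) and 10 of 10 mitosis markers below 0 (median -0.22), none of which passed, and 4 Y-linked genes fell. There 8 of 10 B lymphoid markers (median 0.39) and 6 of 7 progenitor markers (median 0.43) were also above 0. All 10 S phase markers were below 0 (median -0.14), and none of these passed either. The labelled libraries used differed at an unadjusted p under 0.05 from Puma-/- in Dntt (0.92) and in Paxx (-0.27), a scaffold that binds Ku. From G3 mTerc-/-Puma+/+ they differed also in Polm (0.31). The share of all tested genes with such a p was 8.42% against Puma-/- and 6.22% against G3 mTerc-/-Puma+/+. Labelled replicate 2 had 0.327 normalized CPM of Dntt. With it included, limma-voom turned the Dntt difference from Puma-/- negative, as given in the last section. Paxx averaged 31.5 normalized CPM in Puma-/- and 26.1 in the labelled libraries used, beside 29.2 with replicate 2 included. Against Puma-/-, 4 of 4 megakaryocyte markers were below 0 in the labelled libraries used (median -1.81, 3 fell). Above 0 were 6 of 6 erythroid (median 1.40, none passed) and 9 of 10 B lymphoid markers (median 0.90, 1 rose), and 4 Y-linked genes rose. In the same comparison 6 of 7 progenitor markers were below 0 (median -0.54). The S phase (10 of 10, median 0.13) and neutrophil markers (5 of 7, median 0.72) were above 0, and none of these 3 lists had a gene that passed. The part of these cells and of sex in the accessory genes was not tested. None of the 6 measured genes that choose between joining and resection (Trp53bp1, Rif1, Mad2l2, Shld1, Shld2 and Cyren) had an unadjusted p under 0.05 in any comparison, and their medians lay between -0.03 and 0.02 on the log2 scale.

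Libraries of the same genotype differed from each other, and some of the genes followed the cell division markers in these differences. Each gene's log2 CPM was taken as a deviation from its genotype mean over the 15 libraries and correlated with the mean z score of each marker list, with p-values from 100000 permutations within genotypes and Benjamini-Hochberg adjustment over 34 relations. Lig4 was lower where S phase markers were higher (r = -0.80, permutation p = 0.00240, adjusted p = 0.0408; rho = -0.82, permutation p = 0.00235, adjusted p = 0.0399). Its partner Xrcc4 went the other way (r = 0.74, permutation p = 0.00505, adjusted p = 0.0572; rho = 0.78, permutation p = 0.00214, adjusted p = 0.0399). Lig4 and Xrcc4, whose proteins form a complex, moved in opposite directions (r = -0.70, permutation p = 0.00798, adjusted p = 0.0678; rho = -0.74, permutation p = 0.00360, adjusted p = 0.0408).

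In level, the extremes were WT replicate 3, with 3.08 normalized CPM of Lig4 and 8.91 of Xrcc4, and G3 mTerc-/-Puma+/+ replicate 2, with 3.20 and 8.63. As a deviation from the genotype mean, Lig4 was lowest in the same libraries. Xrcc4 deviated most upward in Puma-/- replicate 3 (0.33) and labelled replicate 3 (0.27). The S phase score also went with the factor that corrects for library composition. WT replicate 3 (0.940), Puma-/- replicate 3 (0.953) and G3 mTerc-/-Puma+/+ replicate 2 (0.921) had the highest score and the lowest factor of their groups. Labelled replicate 2 had the lowest score and the highest factor (1.06) of its group. The part of library composition in these relations was not tested. Xrcc5 was lower where mitosis markers were higher (r = -0.83, permutation p = 0.00177, adjusted p = 0.0408; rho = -0.66, permutation p = 0.00845, adjusted p = 0.0718). With the 14 libraries r was -0.84 for Lig4 with S phase, 0.70 for Xrcc4 with S phase, -0.66 for Lig4 with Xrcc4 and -0.69 for Xrcc5 with mitosis. Without the 2 libraries whose level of the second measure, before the genotype means were removed, lay farthest from its median, these values were -0.75, 0.63, -0.63 and -0.76. Without the 2 libraries whose deviation of that measure lay farthest from the median deviation, a choice added after seeing the data, they were -0.75, 0.63, -0.93 and -0.81. The direction was kept in these 12 values, but none of the 34 relations passed the adjustment in any of these 3 smaller sets. Parp1 with S phase had r = 0.75 (adjusted permutation p = 0.0722) and fell to 0.48 with the 14 libraries, and no relation of Xrcc5 to its partner Xrcc6 passed (r = -0.14, adjusted permutation p = 0.995). Without replicate 2 labelled G3 mTerc-/-Puma-/- this r changed sign (r = 0.45, adjusted permutation p = 0.429), and rho went from 0.079 to 0.56 (adjusted permutation p = 0.391).

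**Figure D3:**
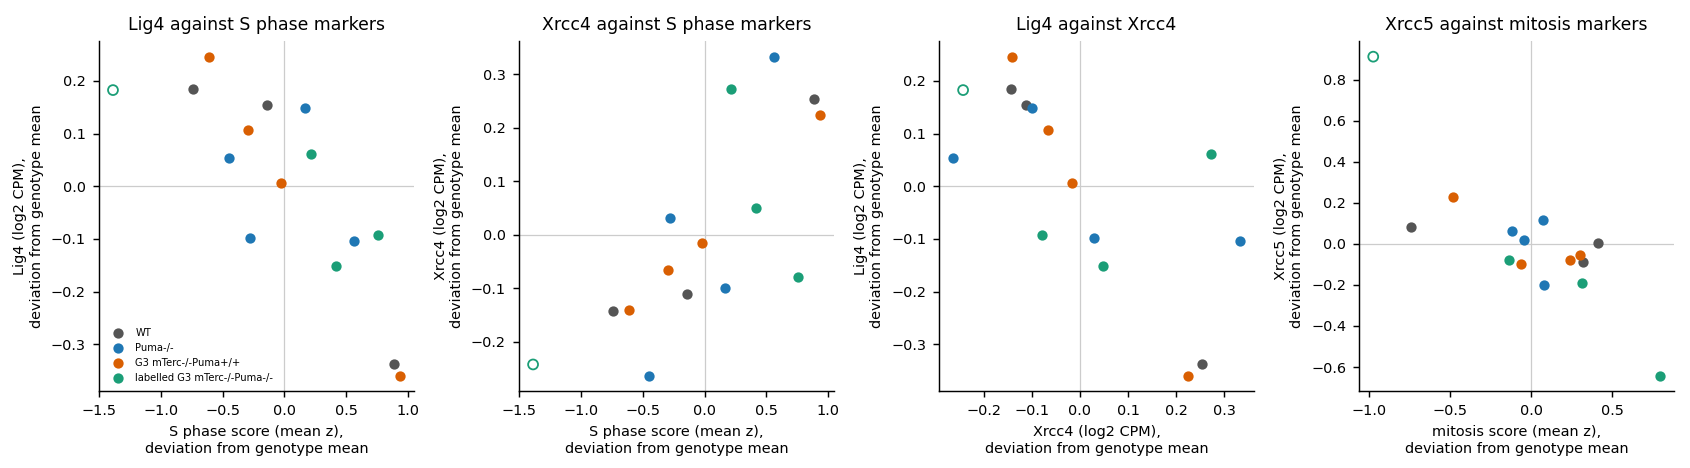
Deviation of log2 CPM from the genotype mean (y axes) for Lig4, Xrcc4 and Xrcc5 against the deviation of a marker score, as mean z, or of Xrcc4 (x axes), with 1 point for each of the 15 libraries. Lig4 falls and Xrcc4 climbs with the S phase score, and in the panel of Xrcc5 replicate 2 labelled G3 mTerc-/-Puma-/- (open circle) is the upper left point.

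Replicate 2 labelled G3 mTerc-/-Puma-/- had the largest departures of the 15 libraries. Xrcc5 was at 22.8 normalized CPM there and at 7.42 to 11.5 in the other 14 libraries, which is 2.32 times the geometric mean of replicates 1, 3 and 4. Xrcc6 did not share this difference, with 72.9 beside 68.8 to 88.4, so that the per-length ratio of Xrcc6 to Xrcc5 was 1.83 there and 3.95 to 5.84 elsewhere. Parp1 was at 177 beside 243 to 283, the lowest of the 15 libraries, and its ratio to Polq per length was 7.39 there and 11.0 to 15.7 elsewhere. Lig4, Dclre1c and Polq were also highest there, but only 0.0262, 0.434 and 0.353 normalized CPM above the next library. Prkdc, Nhej1, Xrcc4, Xrcc6 and Lig3 lay within the range of the other libraries.

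Other markers moved in this library. All 6 erythroid markers were at their highest there, 5 of 7 neutrophil markers were too (27032 beside 11442 to 24042 normalized CPM in sum), and 6 of 10 mitosis markers were at their lowest (2152 beside 2356 to 3006 in sum). Of the S phase markers, 7 of 10 were also at their lowest (2658 beside 2868 to 3658 in sum). The sums of 5 T and NK cell markers (635 beside 317 to 507) and of 4 macrophage markers (262 beside 54.0 to 205) were above those of all other libraries, with 1 gene of each list at its highest there. Of the macrophage markers, Vcam1, at its highest (238), made up most of the sum and Adgre1 was at its lowest (5.51 beside 10.3 to 35.8). Of the progenitor markers, Flt3 (3.45 beside 57.2 to 187) and Cd34 (86.1 beside 152 to 230) were at their lowest, whereas Kit (146), Mecom (3.66) and Hlf (12.0) were above replicates 1, 3 and 4 with this label. Their part in the levels of Xrcc5 and Parp1 was not tested. With a single such library there is no test of its difference from the others.

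**Figure D4:**
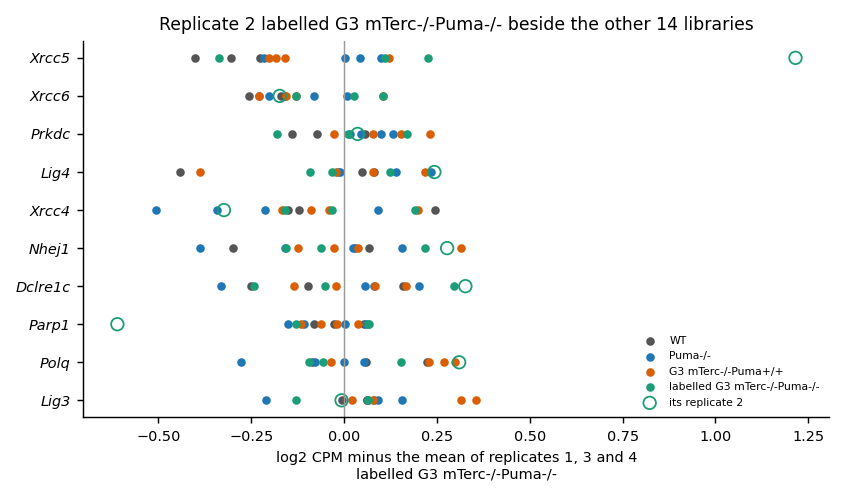
Log2 CPM of each gene (y axis) in each of the 15 libraries, as the difference from the mean of replicates 1, 3 and 4 labelled G3 mTerc-/-Puma-/- (x axis). The open circles are replicate 2 with that label, which lies at 1.22 for Xrcc5 and at -0.61 for Parp1, outside the other 14 libraries.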

How the data were processed

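RNA of Lin- bone marrow cells from secondary recipients was sequenced by the authors as 15 poly(A)-selected, stranded libraries. Per the labels and the study's methods, reads were trimmed with Trimmomatic 0.38 and counted per gene with STAR 2.5.2b on mm10 (GRCm38), and what was deposited is the raw count of each gene and library. The annotation release and the strand setting are not given in the sources used here. Whether the libraries come from separate recipients is not stated for each, so that p-values measure the spread between these libraries.

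Members and lists were chosen with earlier results of these data known. The counts were analysed with edgeR 4.0.16 in R 4.3.3 (TMM, filterByExpr, a quasi-likelihood fit of all 4 genotypes in 14 libraries, Benjamini-Hochberg adjustment over 18983 genes, threshold 0.05). Log2 CPM used a prior count of 2. Differences were named for each gene at its smallest pairwise p and at any unadjusted p under 0.05, and accessory genes at the latter, with up to 6 per comparison. The genes most like Polq, which had the smallest p over the genotypes, were taken from those with a mean of 5 CPM or more. Alternatives were DESeq2 1.42.0, limma-voom (limma 3.58.1), all 15 libraries, library size alone, other filters, a replicate block, Xist as a covariate, the compared genotypes alone and leaving out each library. limma-voom with all 15 libraries, and leaving out the 2 libraries of largest deviation from the correlations, were chosen after seeing the data. The fit was tested on simulated data. Between replicates with the same label the chi-square per gene was 41.8 or more, so that no library was a copy of another with its label. Libraries of different labels were not compared in this way. Gene positions are from GENCODE vM21 and promoters from RefSeq. Prkdc had no entry in the promoter table, and Shld3 was not matched.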

Additional observations from a re-analysis of the deposited data

Results flagged for a closer look

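Among the 30 groups of 4 libraries examined for a single library far from the rest, 1 was found, and chance gives about 1 in 20. Xrcc5 in G3 mTerc-/-Puma+/+ replicate 3 was at 10.7 normalized CPM, beside 8.52 to 8.78 in the other 3 libraries of that genotype.

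Signals in replicate 2 labelled G3 mTerc-/-Puma-/-, which the comparisons did not use, exceeded all other libraries in 4 of the 10 genes. Xrcc5 was at 22.8 normalized CPM there, beside 7.42 to 11.5 in the other 14 libraries. Polq was at 43.8 beside 29.1 to 43.4, Dclre1c at 20.1 beside 12.7 to 19.7 and Lig4 at 4.97 beside 3.08 to 4.94, so that for these 3 genes the excess over the next library was at most 0.434 normalized CPM.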

How the results depend on the processing

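No gene passed the adjusted threshold in any of 1900 tests under 24 alternatives (lowest adjusted p 0.101, for Polq), so that the main result held in each. The number of genes at an unadjusted p under 0.05 moved with the setting. In Puma-/- against WT it was 0 and became 1 with library size alone, DESeq2, the filter of 1 CPM in 3 libraries, the compared genotypes alone and the replicate block, with 0 to 1 when a library was left out. In the labelled libraries against WT it was 0 and became 1 with all 15 libraries, DESeq2, no filter and Xist as a covariate and 2 with library size alone, the 1 CPM filter and the replicate block, with 0 to 2 when a library was left out. In G3 mTerc-/-Puma+/+ against Puma-/- it was 1 and became 0 with library size alone, with 0 to 2 when a library was left out. Leaving out a library gave 0 to 1 for the labelled libraries against Puma-/-, for the interaction and over the 4 genotypes, and 0 to 2 for them against G3 mTerc-/-Puma+/+. Among left-out libraries, the counts of 2 arose without G3 mTerc-/-Puma+/+ replicate 1 or labelled replicate 1, the 0 without G3 mTerc-/-Puma+/+ replicate 4, and counts of 1 without Puma-/- replicate 1 or 3, G3 mTerc-/-Puma+/+ replicate 1, 2 or 3 or labelled replicate 1. The cause was not tested. Replicate numbers did not pair the libraries, since same-numbered libraries had correlations of -0.25 to 0.18 with a median of 0.05, and the replicate block changed no adjusted call.

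The Polq difference ran from 0.20 to 0.33 on the log2 scale over the 24 alternatives, with an unadjusted p under 0.05 in 21 of them. Of the 240 alternative values of the differences named, 4 changed sign, all with an adjusted p of 0.892 or more. These were Dclre1c without WT replicate 2 (-0.0075), Nhej1 with Xist as a covariate (-0.053), and Parp1 in the labelled libraries against Puma-/- with all 15 libraries (-0.081, and -0.10 with limma-voom). Of the 312 alternative values of the accessory genes named, 2 changed sign, both of Dntt in the labelled libraries with all 15 libraries and limma-voom (-1.12 against Puma-/- and -0.033 against WT). Of 3990 tests of accessory genes under the alternatives, 9 passed the adjusted threshold, all of Dntt or Tdp2 and 5 of them with DESeq2. The others were Dntt over the 4 genotypes with no filter, Dntt over the 4 genotypes and against WT without G3 mTerc-/-Puma+/+ replicate 2 (adjusted p = 0.0342 and 0.0440, edgeR), and Tdp2 without Puma-/- replicate 3 (0.0372). Correlations kept their direction and lost the adjusted threshold with 14 libraries (r = -0.69 for Xrcc5 with mitosis and -0.84 for Lig4 with S phase; rho = -0.74 for Lig4 with S phase, 0.60 for Xrcc4 with S phase and -0.66 for Lig4 with Xrcc4). Without the 2 farthest libraries the same values were r = -0.76 and -0.75 and rho = -0.66, 0.51 and -0.60, and without the 2 of largest deviation r = -0.81 and -0.75 and rho = -0.66, 0.51 and -0.84. Among the 10 genes the lowest count was 325, for Lig4, so that its counting error is the largest.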
